A study of Mus musculus with 8 samples.

Results

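The genes described here make, sense or remove reactive oxygen species in mouse liver: 33 genes that encode subunits of NADPH oxidases, the NRF2 switch with its inhibitor KEAP1, and enzymes of antioxidant defence. They were taken by symbol from a table of microarray values, with 1 probe set (a group of probes that reads 1 transcript) per gene, the brightest over the 8 arrays. Of the 33 genes, 31 had a probe set assigned to a single gene symbol, among 19938 genes tested in all. Prdx5 and Prdx6 had none and were not analysed here.

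Livers came from male littermates 8 weeks old. In 4 samples Hmgb1, a DNA-binding protein of chromatin, was deleted by Albumin-Cre, a recombinase under a promoter active in hepatocytes, and 4 control samples carried floxed Hmgb1 alleles. The titles name Cre for the deleted samples only, so an effect of Cre and loss of Hmgb1 cannot be told apart, and other liver cells are expected to keep the gene under this promoter. The labels name both a C57Bl/6 background, reached by 5 backcrosses, and Balb/c, and both whole liver and liver stellate cells. Albumin lay between 13.26 and 14.03 log2 units on all 8 arrays, whereas means over 12 stellate cell markers lay between 8.31 and 8.42. The labels do not state whether the 8 arrays come from 8 animals. The spread behind each p-value is that between arrays, and it may be technical.

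All values are log2 intensities. A difference is the mean of the deleted minus that of the control arrays, with the standard error (SE) from limma, a linear model fitted to all 19938 genes at once. A gene passed where its p, adjusted over all genes by the Benjamini-Hochberg method, was below 0.05. Of all genes 0.692% passed, 0.396% as lower and 0.296% as higher in the deleted livers. Hmgb1 itself fell by 0.91 (SE 0.14, limma adjusted p = 0.0216). Its probe set was dim in both groups, at 4.60 ± 0.31 (SD, n = 4) on deleted and 5.50 ± 0.19 (SD, n = 4) on control arrays, and only 16.5% of genes had a lower mean. Array medians lay between 6.08 and 6.22. On the leading principal component (37.6% of the variance) floxed control 1 had a score of −26.6 and the other 7 arrays had scores of −11.4 to 11.7, so calls that turn on this array are given with and without it.

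NADPH oxidases pass electrons from NADPH to oxygen and so make superoxide or hydrogen peroxide on purpose. NOX4 works with the membrane partner p22phox and is active without the cytosolic subunits that phagocytes use. Superoxide dismutases turn superoxide into hydrogen peroxide, which catalase, glutathione peroxidases and peroxiredoxins then remove. The glutathione peroxidases and peroxiredoxins do so at the cost of glutathione or thioredoxin. KEAP1 holds the transcription factor NRF2 for degradation until oxidants or electrophiles modify it. Free NRF2 binds antioxidant response elements in DNA and turns on genes of glutathione synthesis, thioredoxin reduction and quinone reduction.

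Because NRF2 acts through that element, its core TGACNNNGC was searched on both strands in the RefSeq promoters (build GRCm38.p6), which span 250 bases before to 50 bases after each gene's start. Promoters were found for 28 of the 33 genes, and 7 of them (25.0%) held the core, against 15.2% of the 15614 genes on the arrays with a promoter in that table. Of 9 genes named as NRF2 targets in textbooks, 7 had a promoter and 4 held the core: Gclm, Prdx1, Srxn1 and Txnrd1. The other 3 matches were in Nfe2l2, which encodes NRF2 itself, Sesn2 and Sod1. A match to these letters is a description and not a binding site. All 7 are shown on the strand that reads TGACNNNGC, with the core in capitals, because they are the genes of the set with a match.
Gclm: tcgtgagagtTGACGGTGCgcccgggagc
Nfe2l2: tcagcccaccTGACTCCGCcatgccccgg
Prdx1: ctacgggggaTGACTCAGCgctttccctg
Sesn2: cgcagcgggcTGACAGAGCcgggcgagcg
Sod1: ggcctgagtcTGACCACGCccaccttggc
Srxn1: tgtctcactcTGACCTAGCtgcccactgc
Txnrd1: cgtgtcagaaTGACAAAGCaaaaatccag
They lie at chr3:122245413-122245441 (Gclm), chr2:75704885-75704913 (Nfe2l2), chr4:116685456-116685484 (Prdx1), chr4:132510474-132510502 (Sesn2), chr16:90220696-90220724 (Sod1), chr2:152105542-152105570 (Srxn1) and chr10:82859104-82859132 (Txnrd1). Nfe2l2 and Sesn2 are on the minus strand and carry the core on the gene's own strand. The other 5 are on the plus strand and carry it on the opposite one. That of Srxn1 starts 29 bases after the gene's start and the others lie upstream of the start.

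The comparison asked whether sources of oxidants and defences differ between the Hmgb1 deleted and the floxed control livers. Of the 31 measured genes 1 passed, Nox4, which fell, and 0 rose, where 0.692% of all genes passed (limma). At an unadjusted p below 0.05 there were 4 of the 31 (Nox4, Keap1, Txnip and Prdx4), where 9.46% of all genes were below it. The 31 genes were 15 higher and 16 lower, with a median difference of −0.010, beside a median of 0 over all genes (9773 higher and 9928 lower). For 29 of the 31 the 95% interval of the difference lay within 1.5-fold in either direction, as it did for 19371 of all 19938 genes. The exceptions were Nox4 and Txnip. The groups did not overlap for 2 of the 31, again Nox4 and Txnip, where 5.57% of all genes had groups that do not overlap and 2.3% had every deleted array below every control.

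**Figure D1:**
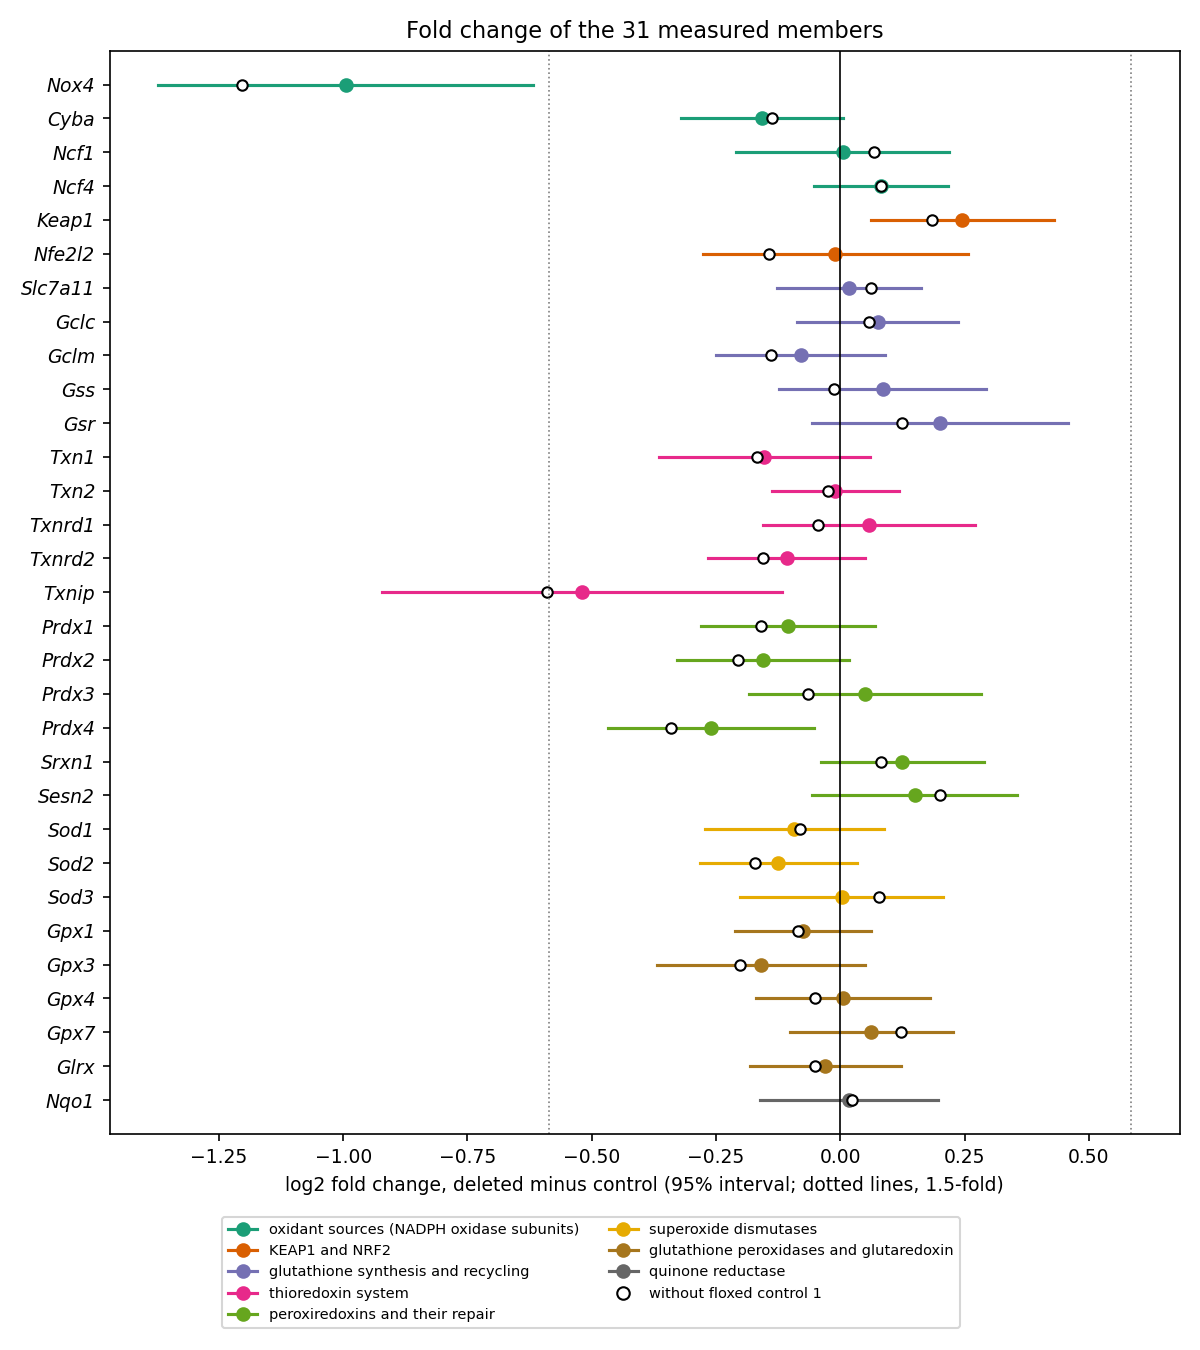
Differences in log2 intensity, deleted minus control, of the 31 measured genes (filled points, coloured by role) with 95% intervals from limma over 4 arrays a group. Open points leave out floxed control 1, and dotted lines mark 1.5-fold. Nox4, at −0.995, lies apart from the other 30, which run from −0.52 (Txnip) to 0.245 (Keap1).

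Among the sources of oxidants, Nox4 encodes the catalytic subunit of the oxidase found in hepatocytes, stellate cells and endothelium. Its log2 intensities on deleted arrays 1 to 4 were 7.12, 7.33, 7.36 and 7.40, and on control arrays 1 to 4 they were 7.67, 8.51, 8.50 and 8.51. All deleted arrays lay below all controls, and control 1 lay nearer to the deleted arrays than to the other controls. The group means were 7.30 ± 0.13 (SD, n = 4) and 8.30 ± 0.42 (SD, n = 4), and Nox4 fell by 0.995 (SE 0.17, limma adjusted p = 0.0285), which is 1.99-fold lower with a 95% interval of 1.54-fold to 2.59-fold. Without control 1 it fell by 1.20 (SE 0.074, limma adjusted p = 3.39e-05), in a fit in which 1.61% of all genes passed. Leaving out any 1 of the other 7 arrays ended the call, with differences of −1.03 to −0.92 and adjusted p of 0.0732 to 0.127, and so did testing all probe sets (limma adjusted p = 0.0919) or centring arrays on their medians (0.0725).

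**Figure D2:**
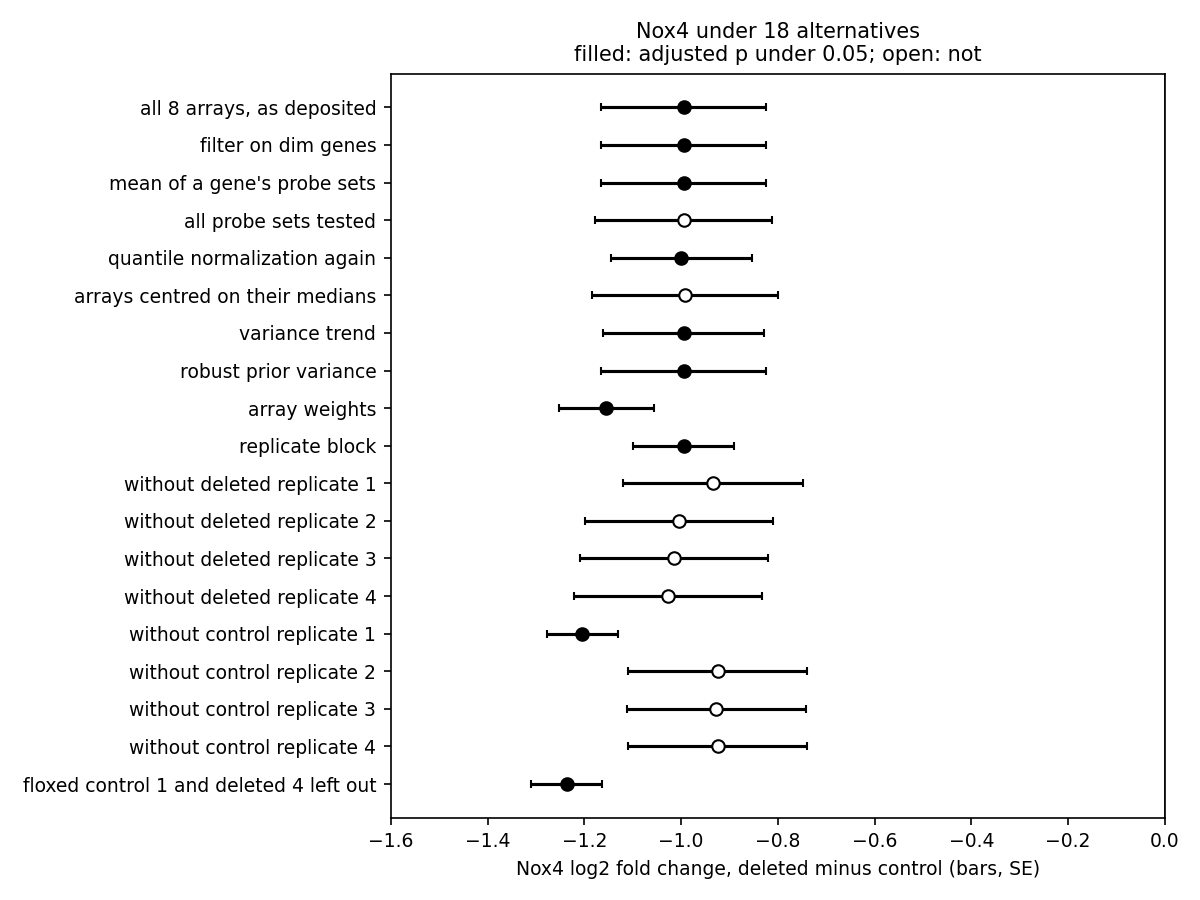
Nox4 difference in log2 intensity, deleted minus control, with its SE, for the fit to all 8 arrays as deposited and for 18 alternatives. Filled points had a limma adjusted p below 0.05 and open points did not: the difference stayed between −1.24 and −0.92, and 9 of the 18 alternatives passed.

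The 250 bases before the start of Nox4 (chr7:87246399-87246648, plus strand, RefSeq, GRCm38.p6) are shown because it is the 1 gene of the set past the threshold. Capitals mark the GC box GGGCGG, searched on both strands after the sequence had been seen.
Nox4: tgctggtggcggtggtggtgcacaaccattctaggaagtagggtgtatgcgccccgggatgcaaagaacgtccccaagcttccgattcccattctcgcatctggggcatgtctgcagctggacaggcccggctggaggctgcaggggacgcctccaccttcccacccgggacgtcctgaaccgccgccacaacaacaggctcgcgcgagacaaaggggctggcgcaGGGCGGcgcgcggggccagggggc
This stretch is 67.2% G and C, above 86.5% of all promoters in the table, whose median is 52.4%. It held 1 GC box and the promoter 0 matches to TGACNNNGC. GC boxes were found in 26 of the 28 promoters of the set (92.9%) and in 52.9% of those of genes on the arrays.

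Cyba encodes p22phox, the membrane partner that NOX4 and other oxidases need. Its values were 8.26, 8.10, 8.40 and 8.20 on deleted and 8.46, 8.35, 8.45 and 8.33 on control arrays. Deleted 3 lay among the controls, and the difference of −0.16 (SE 0.074) did not pass (limma adjusted p = 0.563). Ncf1 encodes p47phox, the organiser of the phagocyte oxidase. It gave 6.76, 6.81, 7.10 and 6.72 on deleted and 7.03, 6.72, 6.76 and 6.86 on control arrays, with overlapping groups and a difference of 0.0050 (SE 0.097). Ncf4 encodes p40phox, another cytosolic subunit, and gave 5.70, 5.64, 5.74 and 5.82 against 5.64, 5.70, 5.64 and 5.59, also overlapping, with a difference of 0.0825 (SE 0.061). The probe set of Ncf4 was dim, below the median of all genes. For the 4 sources the median difference was −0.076.

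Markers of cell types were read on the same arrays, because in whole liver fewer cells of a type and less RNA per cell cannot be told apart. Markers of sinusoidal endothelium were lower for 12 of 12 genes, with list means of 8.90 to 9.05 on deleted and 9.13 to 9.30 on control arrays, and 1 of them, the lectin Clec4g, passed (limma; 7 at an unadjusted p below 0.05). Of all genes 9.46% were below that unadjusted p. Erythroid markers, 6 of 12 measured, had list means of 6.95 to 7.10 against 7.18 to 7.29. The 6 went both ways, 2 higher and 4 lower (3 and 3 without control 1), with differences of −0.545 to 0.0425, a median of −0.085 and 0 past the threshold (limma; 2 at an unadjusted p below 0.05, and 2 past the threshold without control 1). The means of both lists were lower on all deleted than on all control arrays, as Nox4 was, and their part in its fall was not tested. Stellate cell markers had overlapping means, 8.32 to 8.42 on deleted and 8.31 to 8.39 on control arrays, with 4 of 12 higher and 0 past the threshold (limma; 2 at an unadjusted p below 0.05). Hepatocyte markers (11 measured) had 12.71 to 13.11 against 13.08 to 13.13, with deleted 4 lowest. Of these 11 genes 10 were lower, with a median of −0.17 and 0 past the threshold (limma; 3 at an unadjusted p below 0.05). Cholangiocyte markers (6 measured) had overlapping means, 5.80 to 6.03 against 6.01 to 6.11, with 2 genes higher and 4 lower. In limma 0 of them passed, 1 had an unadjusted p below 0.05, and 1 passed without control 1. Of the 6 genes, 5 had a mean below the median of all genes tested. Macrophages and neutrophils carry the phagocyte subunits: macrophage markers had 8.69 to 8.85 against 8.67 to 8.84, and those of neutrophils and monocytes 5.58 to 5.67 against 5.53 to 5.86, with 0 of 12 and 0 of 11 past the threshold (limma; 1 and 0 at an unadjusted p below 0.05). Of the 11 neutrophil and monocyte genes, 10 had a mean below the median of all genes tested. The part of these cells in the values of Ncf1 and Ncf4 was not tested.

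**Figure D3:**
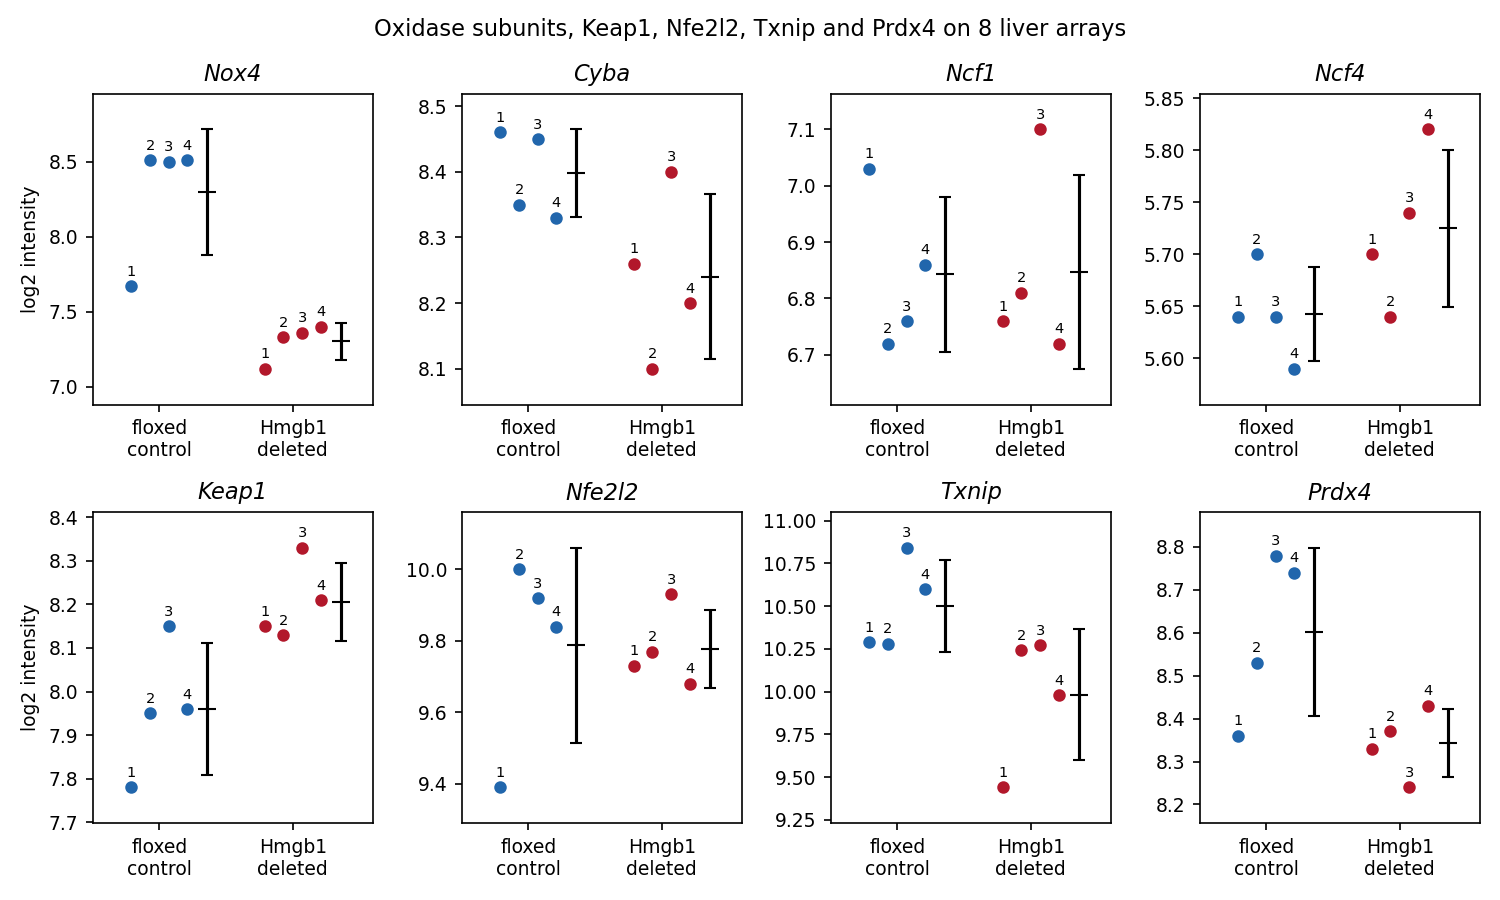
Log2 intensity of 8 genes on each array, numbered by replicate, in floxed control (blue) and Hmgb1 deleted (red) livers; bars show the mean and SD of 4 arrays, and each panel has its own axis that does not start at 0. Nox4 and Txnip are the panels in which the groups do not overlap, and control 1 lies low for Nox4, Keap1 and Nfe2l2.

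Keap1 encodes the adaptor that holds NRF2 for degradation. Its values were 8.15, 8.13, 8.33 and 8.21 on deleted and 7.78, 7.95, 8.15 and 7.96 on control arrays. Control 3 equalled deleted 1, and the other controls lay below all deleted arrays. The difference of 0.245 (SE 0.083; 95% interval 0.061 to 0.43) did not pass (limma adjusted p = 0.307). Control 1 was the lowest array for Keap1, and the difference without it was 0.185 (SE 0.075, limma adjusted p = 0.299). Nfe2l2 gave 9.73, 9.77, 9.93 and 9.68 on deleted and 9.39, 10, 9.92 and 9.84 on control arrays. The groups overlapped, control 1 lay lowest of all, and the difference was −0.010 (SE 0.12), or −0.14 (SE 0.074) without control 1, neither of which passed.

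The genes of the set named as textbook NRF2 targets did not pass: 0 of 9 (limma, 0 at an unadjusted p below 0.05). They were 6 higher and 3 lower, with a median difference of 0.0175. All 9 intervals lay within 1.5-fold, as for 19371 of all 19938 genes, and 2 of the 9 had a mean below the median of all genes. Nqo1, the quinone reductase often read as a gauge of NRF2 activity, had 5.90 ± 0.12 (SD, n = 4) on deleted and 5.88 ± 0.12 (SD, n = 4) on control arrays. Its probe set was dim, below the median of all genes. The glutathione genes include Slc7a11, the cystine carrier that supplies cysteine, Gclc and Gclm, the catalytic and modifier subunits of the first step of synthesis, Gss, which completes it, and Gsr, which reduces oxidised glutathione. Of these 5 genes 4 were higher and Gclm lower, with 0 past the threshold. Gsr differed most, with 10, 10.38, 10.37 and 10.25 on deleted and 9.82, 10.31, 9.93 and 10.14 on control arrays. These groups overlapped and the difference was 0.20 (SE 0.12, limma adjusted p = 0.723). Gclc had a difference of 0.075 (SE 0.074), Gclm of −0.080 (SE 0.077), Gss of 0.085 (SE 0.094) and the dim Slc7a11 of 0.0175 (SE 0.066). Control 1 was the lowest array for Gclc, Gclm, Gss and Gsr. Without it the difference of Gclm was −0.14 (SE 0.066), which did not pass (limma adjusted p = 0.388). That of Gsr was then 0.12, that of Gclc 0.0575 and that of Gss −0.012. The 5 genes were 3 higher and 2 lower without this array, with 0 past the threshold.

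Thioredoxins hand electrons to peroxiredoxins, and thioredoxin reductases recharge them. Txnip encodes the protein that binds thioredoxin and blocks it. Its values were 9.44, 10.24, 10.27 and 9.98 on deleted and 10.29, 10.28, 10.84 and 10.60 on control arrays. All deleted arrays lay below all controls, but deleted 3 and control 2 lay only 1 step of the deposited decimals apart. The group means were 9.98 ± 0.38 (SD, n = 4) and 10.50 ± 0.27 (SD, n = 4), and the difference of −0.52 (SE 0.18; 95% interval −0.92 to −0.12) did not pass (limma adjusted p = 0.326). Without deleted 1 it was −0.34. The cytosolic Txn1 had a difference of −0.15 (SE 0.096), the mitochondrial Txn2 of −0.010 (SE 0.058), the cytosolic reductase Txnrd1 of 0.0575 (SE 0.096) and the mitochondrial Txnrd2 of −0.11 (SE 0.072), 0 of which passed. For Txnrd1, control 1 had 8.52 where the other 7 arrays had 8.83 to 8.98, and without it the difference was −0.046. Txn1 was lowest on deleted 4, at 12.64 against 12.96 to 13.17 elsewhere, and its difference was −0.052 without that array.

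Peroxiredoxins reduce hydrogen peroxide through a reactive cysteine. Prdx4, which works in the endoplasmic reticulum, differed most. It gave 8.33, 8.37, 8.24 and 8.43 on deleted and 8.36, 8.53, 8.78 and 8.74 on control arrays. Control 1 lay within the range of the deleted arrays and the other 3 controls above it. The difference of −0.26 (SE 0.094, limma adjusted p = 0.347) did not pass, and neither did that of −0.34 without control 1 (limma adjusted p = 0.0591). With arrays weighted by their quality it did (−0.33, limma adjusted p = 0.0427). Without control 3 the difference of Prdx4 was −0.20, which did not pass.

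Prdx2, abundant in red cells, had a difference of −0.16 (SE 0.078) and Prdx1, the main cytosolic form, of −0.10 (SE 0.080). The erythroid list means given above were lower in the deleted livers too, although 2 of the 6 genes were higher, and their part in Prdx2 was not tested. Both genes had a further, dimmer probe set, which gave −0.14 (SE 0.074) for Prdx2 and −0.15 (SE 0.093) for Prdx1. Which transcript or gene copy each set reads was not analysed here. The mitochondrial Prdx3 had 0.050 (SE 0.11), but −0.064 without control 1, which lay at 10.11 against 10.38 to 10.58 on the other arrays. Srxn1, sulfiredoxin, which repairs overoxidised peroxiredoxins, had 0.125 (SE 0.074) and the stress-induced Sesn2 had 0.15 (SE 0.093). None of these 6 genes passed (0 of 6, limma; Prdx4 alone at an unadjusted p below 0.05).

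Superoxide dismutases act in the cytosol (Sod1), mitochondria (Sod2) and outside the cell (Sod3). Their differences were −0.0925 (SE 0.082), −0.125 (SE 0.072) and 0.0025 (SE 0.093), with adjusted p of 0.71 or more in limma. Sod1 was lowest on deleted 4, at 12.69 where the other 7 arrays had 12.98 to 13.06, and its difference was −0.011 without that array. Albumin was lowest on the same array, at 13.26 against 13.93 or more. So was the highest value of any probe set, with or without a gene symbol, at 13.58 against 14.23 to 14.46.

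Glutathione peroxidases use glutathione to reduce peroxides. Gpx1, the main cytosolic form, had a difference of −0.075 (SE 0.062), the secreted Gpx3 of −0.16 (SE 0.095), Gpx4, which reduces lipid peroxides in membranes, of 0.0050 (SE 0.079), and the dim Gpx7 of 0.0625 (SE 0.074). A further, dimmer probe set of Gpx4 gave −0.0025 (SE 0.070). Glrx, glutaredoxin, which removes glutathione from proteins, had −0.030 (SE 0.069). All 5 intervals lay within 1.5-fold, as for 19371 of all 19938 genes, the widest being that of Gpx3 (−0.37 to 0.0495). The largest change that the interval of Gpx4 allows is 1.13-fold.

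Over all 24 measured defences, which leave out the sources, Keap1, Nfe2l2 and Txnip, 12 were higher and 12 lower, with a median difference of −0.0037, and 0 passed (limma; 1 at an unadjusted p below 0.05). All 24 intervals lay within 1.5-fold, as they did for 19371 of all 19938 genes. Of the 24, 3 had a dim probe set, below the median of all genes, for which a change is hardest to see. The 4 mitochondrial genes Txn2, Txnrd2, Prdx3 and Sod2 were 1 higher and 3 lower with a median of −0.059, or 0 higher and 4 lower with a median of −0.11 without control 1. Control 1 bore on these counts too: without it 8 defences were higher and 16 lower with a median of −0.050, where all genes had a median of 0.012, and 0 passed.

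The arrays differed among themselves in these genes. Control 1 had the lowest value of the 8 arrays for 10 of the 31 genes: Keap1, Nfe2l2, Gclc, Gclm, Gss, Gsr, Txnrd1, Prdx3, Srxn1 and Gpx4. It had the highest for Cyba, Slc7a11, Sod3 and Gpx7. Of all genes 21.5% were lowest on control 1 and 24.1% highest. Control 3 had the highest value for 11 of the 31, among them Txnip, Prdx1, Prdx2, Prdx4, Gpx1 and Gpx3, where 9.20% of all genes were highest on that array. Without control 3 the difference was −0.066 for Prdx1, −0.093 for Prdx2, −0.20 for Prdx4, −0.082 for Gpx3 and −0.065 for Txnrd2, all smaller in size. That of Gss, also highest on control 3, was 0.145 without it, which was larger. Deleted 4 had the lowest for Txn1, Txn2, Sod1 and Gpx1, where 21.9% of all genes were lowest.

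**Figure D4:**
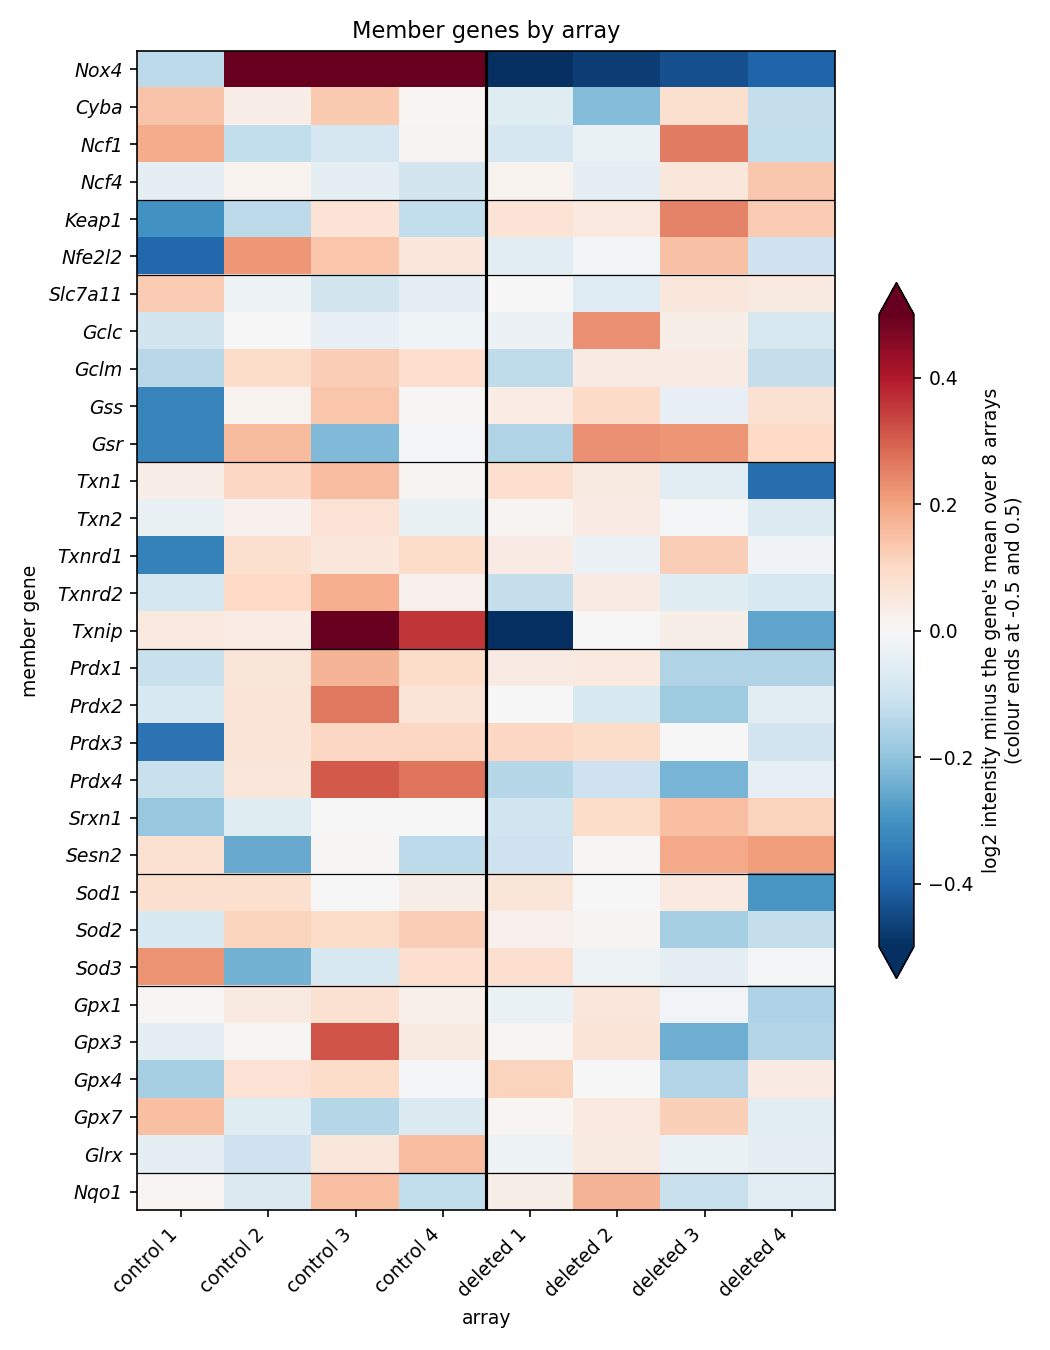
Log2 intensity of the 31 measured genes on each array, minus the gene's mean over 8 arrays; red is above and blue below the mean, colours end at −0.5 and 0.5, and horizontal lines part the roles. The top line, Nox4, is blue on the 4 deleted arrays and red on 3 of the 4 controls, and control 1 is blue for Keap1, Nfe2l2, Gss, Gsr, Txnrd1 and Prdx3.

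A further 96 genes of oxidant production, NRF2 control and antioxidant defence were read from the same fit. They were chosen by role, with earlier results of these data known. Of the 88 measured, 2 (Ero1b and Gstm4) fell and 0 rose, against 0.692% of all genes, with 36 higher, 51 lower and 1 equal and a median difference of −0.019. At an unadjusted p below 0.05 (limma) there were 16 of the 88, where 9.46% of all genes were below it. The groups did not overlap for 6 of the 88, where 5.57% of all genes had groups that do not overlap. Without control 1, 7 of the 88 passed, against 1.61% of all genes: Hao1, Ero1b, Me1, Osgin1, Gstm4, Ugdh and Msrb3. Ero1b, which makes disulfide bonds in the endoplasmic reticulum and gives off hydrogen peroxide, gave 8.77, 8.80, 8.72 and 8.85 on deleted and 9.37, 9.0, 9.31 and 9.27 on control arrays. The groups did not overlap, and Ero1b fell by 0.45 (SE 0.082, limma adjusted p = 0.0390). Gstm4, a glutathione transferase, gave 10.64, 10.56, 10.59 and 10.62 against 10.81, 11.27, 11.28 and 11.22. Again the groups did not overlap, with control 1 nearest to the deleted arrays, and Gstm4 fell by 0.54 (SE 0.099, limma adjusted p = 0.0398), or by 0.65 (SE 0.056, limma adjusted p = 0.000438) without control 1. Hao1, a peroxisomal oxidase that gives off hydrogen peroxide, was chosen after its values were seen: its difference was −0.20 (SE 0.13, limma adjusted p = 0.764), and without control 1 it was −0.35 (SE 0.072, limma adjusted p = 0.0418). Ero1b and Hao1 belong to 7 measured oxidant-producing enzymes outside the NADPH oxidases, of which 3 were higher and 4 lower. In limma 1 of the 7 passed and 2 had an unadjusted p below 0.05. Xdh, named after its values were seen, gave 10.07, 10.12, 10.39 and 10.16 on deleted and 9.82, 9.97, 9.98 and 9.99 on control arrays. Its groups did not overlap, and its difference of 0.245 (SE 0.080) did not pass (limma adjusted p = 0.276). Of 18 alternatives, Ero1b passed in 8 and Gstm4 in 9. The calls of Ero1b and Gstm4 were both lost with all probe sets tested (limma adjusted p = 0.0927 and 0.10) and with arrays centred on their medians (0.0748 and 0.108). Ero1b also lost it after quantile normalization again (0.0564) and without control 1 and deleted 4 (0.0591). With 1 array left out, Ero1b kept its call without control 1 or control 2 and lost it without any 1 of the other 6 arrays, whereas Gstm4 kept it only without control 1.

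None of the 11 measured other oxidase genes passed (0 of 11, limma; 0 at an unadjusted p below 0.05). Those with the smallest p were the dual oxidases Duox1 (−0.12, SE 0.13) and Duox2 (−0.065, SE 0.084), both dim. Of the 10 partners and repressors of NRF2 0 passed (limma; 1 at an unadjusted p below 0.05), with Cul3, the scaffold of the ligase that KEAP1 serves, at −0.18 (SE 0.072, limma adjusted p = 0.413) and the related factor Nfe2l1 at −0.14 (SE 0.084). Of 24 other antioxidant enzymes 0 passed (limma, with 2 at an unadjusted p below 0.05). The smallest p were those of the dim Gpx6 (−0.32, SE 0.099) and the methionine sulfoxide reductase Msrb3 (−0.285, SE 0.098). Msrb3 passed without control 1 (−0.37, SE 0.077, limma adjusted p = 0.0423). Of 9 measured genes of glutathione supply 0 passed (limma; 4 at an unadjusted p below 0.05, where 9.46% of all genes were). They were 4 higher and 5 lower with a median of −0.0825. The 2 with the smallest p were Slc3a2, the partner chain of the cystine carrier, at 0.25 (SE 0.078), and Oplah, which recycles oxoproline, at 0.1875 (SE 0.066). The other two below that p, named after their values were seen, were lower: Chac1, which degrades glutathione, at −0.34 (SE 0.14), and Cth, which makes cysteine from cystathionine, at −0.21 (SE 0.082).

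Among 27 measured other NRF2 targets, 15 were higher and 12 lower with a median of 0.010. In limma 1 passed and 7 had an unadjusted p below 0.05, where 9.46% of all genes were below it. Without control 1 they were 12 higher and 15 lower with a median of −0.017, and 4 passed. The groups did not overlap for 3 of the 27, where 5.57% of all genes had groups that do not overlap. Besides Gstm4, 3 of these targets were chosen here after their values were seen. Osgin1, an oxidative stress-induced growth inhibitor, gave 9.97, 9.90, 9.91 and 9.99 on deleted and 8.22, 9.39, 9.24 and 9.11 on control arrays, with groups that do not overlap. Its difference of 0.95 (SE 0.20, limma adjusted p = 0.0778) did not pass, although that of 0.70 without control 1 did (SE 0.073, limma adjusted p = 0.00172). Ugdh, which makes UDP-glucuronate, gave 11.22, 11.15, 11.08 and 11.07 against 10.77, 10.87, 10.81 and 10.85, again without overlap, with a difference of 0.305 (SE 0.060, limma adjusted p = 0.0528; 0.0481 without control 1). Me1, the cytosolic malic enzyme that yields NADPH, gave 9.35, 9.82, 10.24 and 9.80 against 9.97, 10.70, 10.62 and 10.61, with overlapping groups and a difference of −0.67 (SE 0.19, limma adjusted p = 0.196), or −0.84 without control 1 (limma adjusted p = 0.0283).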

How the data were processed

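The authors deposited log2 intensities of microarray probe sets, made with RMA (background correction, normalization between arrays, summary of probes) per the submitters' processing notes. Its version, its software and the genome build are not stated in the sources used here. Per the labels' protocols, 150 ng of RNA was amplified and labelled with biotin. Of 35556 probe sets, 21789 had 1 gene symbol in GEO's platform annotation, 1621 several and 12146 none; no symbol needed an update by gene ID. The symbols gave 19938 genes, and for 999 with more than 1 probe set the one with the highest mean was used. Groups were compared with limma 3.58.1 in R 4.3.3 (lmFit, eBayes, 2-sided, no covariate), tested on simulated data. Figures used Python 3.11.15 and matplotlib 3.10.9. The rule named every listed gene past the threshold, or where none passed the 2 with the smallest p, and all measured genes of the set. The set, the lists and the alternatives were chosen with earlier results of these data known. Arrays give no read depth, and their number limits the precision. Alternatives were a filter on dim genes, averaged probe sets, all probe sets, quantile normalization again, centred arrays, a variance trend, a robust prior, array weights, a replicate block and leaving out arrays.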

Additional observations from a re-analysis of the deposited data

Results flagged for a closer look

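A control or deleted value was singled out where its gap to the nearest array of the same group took up nearly the whole range of that group. The groups were the deleted and the control arrays of the 31 genes and of the other genes named by the rule. Those of Osgin1, Me1 and Ugdh, chosen after their values were seen, were added. Of these 88 groups, each of 4 arrays, 7 held such a value. About 1 in 20, or 4.4, would come by chance if groups were independent, which genes read on the same arrays are not. All 7 fell on floxed control 1 and all were low. Nox4 had 7.67 there against 8.50 to 8.51 on the other controls, Gclm 11.18 against 11.40 to 11.44 and Txnrd1 8.52 against 8.91 to 8.95. Prdx3 had 10.11 against 10.54 to 10.58, Sod2 11.19 against 11.36 to 11.39, Gstm4 10.81 against 11.22 to 11.28 and Me1 9.97 against 10.61 to 10.70. Array weights estimated from all genes ran from 0.254 for control 1 to 2.58 for control 4. Without control 1 the difference of Sod2 was −0.17 in place of −0.125, and it did not pass (limma adjusted p = 0.269). The report gives the values without this array for the other 6 genes. Why this array lay apart was not tested.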

How the results depend on the processing

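The 138 genes past the threshold became 254 after quantile normalization again, 72 with arrays centred on their medians, 526 with array weights, 325 with the replicate number as a block, and 37 to 321 with 1 array left out. Leaving out floxed control 1 and deleted 4 together, added after seeing the data, gave 223. The higher and lower split of 59 and 79 became 131 and 123 after quantile normalization again and 33 and 39 after centring, 212 and 314 with array weights, 162 and 163 with the block, 90 and 231 without control 1 and 60 and 163 without control 1 and deleted 4. Of the 31 genes 1 passed, 0 with all probe sets or centring, 2 with array weights (Nox4 and Prdx4) and 0 to 1 with 1 array left out. Of the 88 other genes 2 passed, 4 with the filter on dim genes, 0 with all probe sets or centring, 5 with array weights, 5 with the block and 0 to 7 with 1 array left out. The numbers pair no samples by the labels, same-numbered arrays correlated at 0.447, 0.0652, −0.0814 and 0.422 in their deviations, and deleted 3 correlated best with control 1, so the pairing was not used. Nox4 passed with the block (limma adjusted p = 0.00539). Median differences ran from −0.16 to −0.035 for the sources and from −0.050 to 0.0078 for the defences.

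Of the 31 genes, 18 kept their sign in all 18 alternatives. The other 13, and Duox1 and Duox2, changed sign somewhere, with turned values of at most 0.080 in size, none past the threshold. After quantile normalization again Ncf1 had −0.0016, Txn2 0.028, Sod1 0.0044, Sod3 −0.023 and Gpx1 0.0041. With array weights Txnrd1 had −0.038, Prdx3 −0.039 and Gpx4 −0.043. Without control 1 and deleted 4 Gss had −0.023, Txnrd1 −0.030, Prdx3 −0.023, Gpx4 −0.063, Duox1 0.080 and Duox2 0.010. With 1 array left out Ncf1 ran from −0.079 to 0.0675, Nfe2l2 from −0.14 to 0.061, Slc7a11 from −0.011 to 0.0625, Gss from −0.012 to 0.145, Txn2 from −0.026 to 0.0125, Txnrd1 from −0.046 to 0.0975, Prdx3 from −0.064 to 0.0925, Sod3 from −0.076 to 0.0775, Gpx4 from −0.050 to 0.055, Glrx from −0.070 to 0.017, Nqo1 from −0.036 to 0.070 and Duox1 from −0.20 to 0.011. The cause of these changes was not tested. The filter on dim genes removed Ncf4, Slc7a11, Gpx7 and Nqo1, for which a change is hardest to see.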
